A study of Mus musculus with 2 samples.

Results

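The genes of the proteasome, its activators and its assembly chaperones were examined in total RNA from the liver of mouse embryos at embryonic day 12.5. Members were the protein-coding genes whose symbol starts with Psm, one of the letters a to g and a digit. These were 50 of 43346 mouse gene identifiers, and 50 of 21474 protein-coding genes. The animals were of the strain B6NCrl, of both sexes pooled and labelled healthy, and no treatment or modified allele was given for them. The livers of 120 embryos were pooled for replicate 1, and those of 88 other embryos for replicate 2. The libraries form 1 group, so there is no control and no test between groups. Each level is given as TPM (a scale that divides reads by transcript length and sums to the same total in each library) in replicate 1 and then in replicate 2, or as a mean ± SD with n = 2.

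The proteasome is the barrel-shaped protease that degrades most short-lived and misfolded proteins once ubiquitin has been attached to them. Its 20S core is a stack of rings: outer rings of alpha subunits form the gate, and inner rings of beta subunits hold the proteolytic sites. The 19S cap sits on the end of the core, binds and removes ubiquitin, unfolds the substrate and feeds it in. Cells exposed to interferon exchange the standard catalytic subunits for those of the immunoproteasome, and cortical thymic epithelium uses a further one, that of the thymoproteasome. The liver at this stage is the main site of blood formation, and maturing red cells clear much of their protein content through ubiquitin.

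Expected counts totalled 37562400 in replicate 1 and 34730000 in replicate 2, and the members took 0.817% ± 0.0128 of them (SD, n = 2). Of the marker genes listed for hepatoblasts, 4 of 4 were at 1 TPM or more in both libraries, with Afp at 5312 and 5136 TPM. All 4 erythroid markers passed the same level, with the globin gene Hba-a2 at 106431 and 107445 TPM. Macrophage markers were also present (5 of 5, with means of 8.85 to 107 TPM), whereas 0 of 4 lymphoid markers reached 1 TPM. Granulocyte markers summed to 543 and 629 TPM, and macrophage markers to 166 and 168 TPM. The RNA comes from whole tissue, so a low level of a gene in many cells and a high level in few cells cannot be told apart.

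Nearly all proteasome genes were expressed, and most were among the abundant transcripts. At 1 TPM or more in both libraries were 49 of 50 members, against 54.5% of all protein-coding genes. At 100 TPM or more in both libraries were 34 members, against 5.39% of all protein-coding genes. The median member stood at the percentile 94.4 of the 11696 protein-coding genes detected at 1 TPM or more, whose own median was 14.2 TPM. The 34 abundant members included the 14 genes of the 20S core and the 17 genes of the 19S cap. Only 4 of the 50 members were below 10 TPM on average in these libraries, and they were Psmb11, Psme2b, Psmb9 and Psma8.

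**Figure D1:**
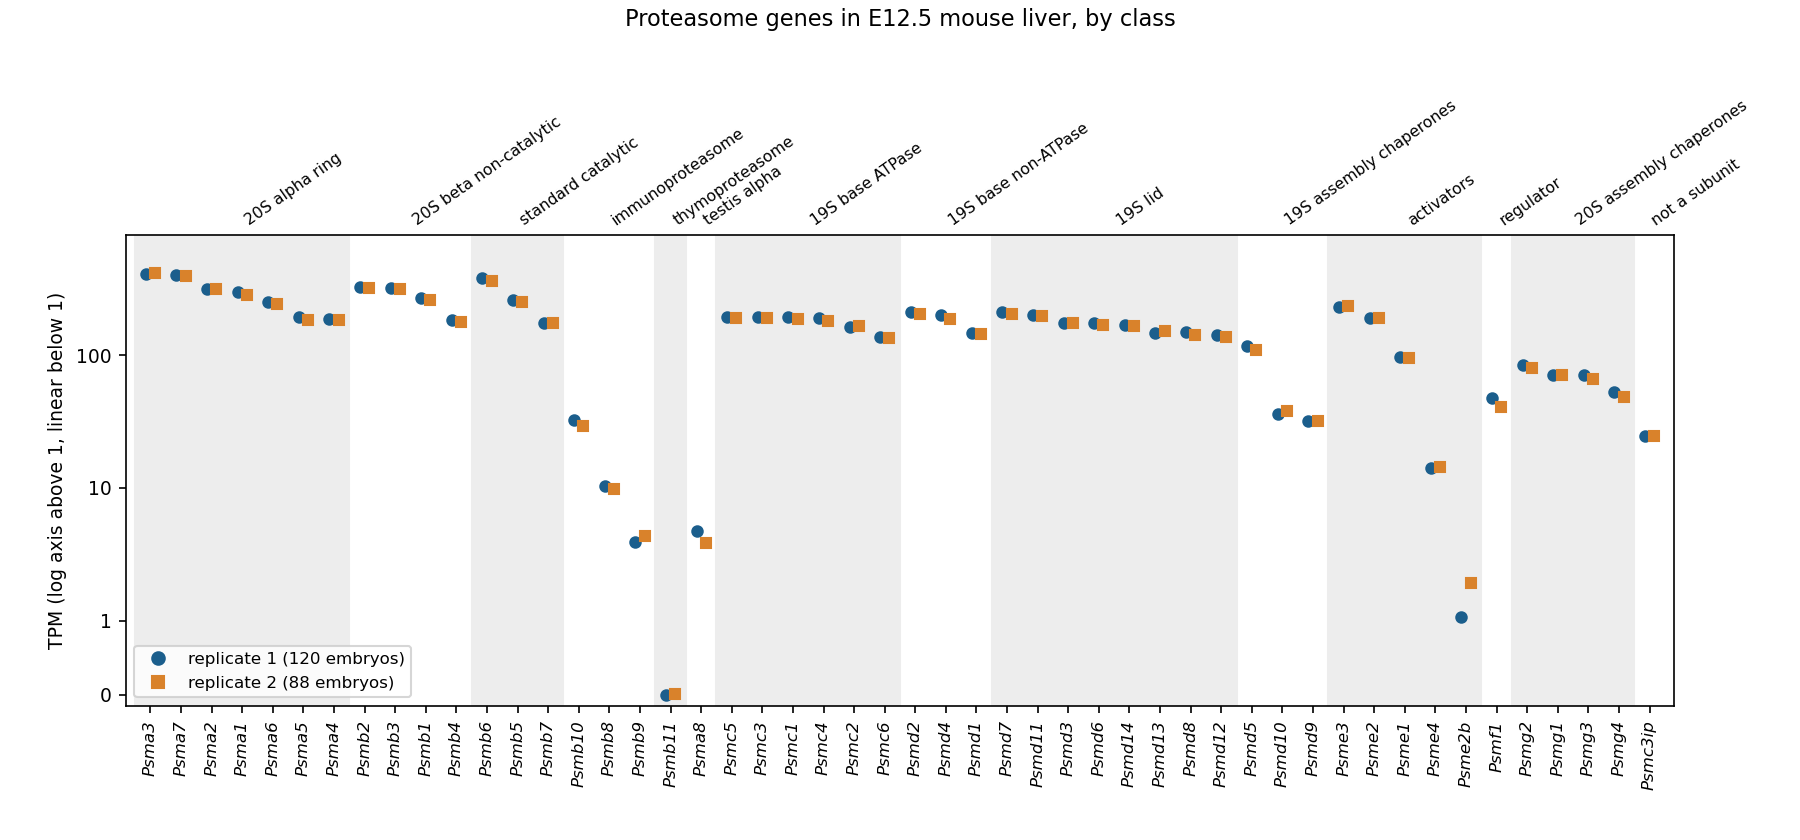
TPM of the 50 members (vertical axis, logarithmic above 1 and linear below) in replicate 1 (circles, left) and replicate 2 (squares, right), ordered by mean within each class. The core genes lie between 175 and 411 TPM and the cap genes in a flatter row between 136 and 208 TPM, while the immunoproteasome genes are at 32.3 TPM or below and Psmb11 is at the baseline.

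In replicate 1 the 20S core genes had a median of 285 TPM, and in replicate 2 of 273 TPM, that is, 279 ± 7.97 TPM (SD, n = 2). The 7 alpha ring genes, whose products gate the barrel and dock its caps, had a median of 292 ± 8.59 TPM. Among them, Psma3 was highest at 406 and 416 TPM, followed by Psma7 at 399 and 397 TPM. Psma2 was at 312 and 313 TPM, Psma1 at 298 and 286 TPM, and Psma6 at 252 and 244 TPM. The ring is built from equal numbers of each product, yet the mRNA of its genes spanned 2.22-fold. Its lowest genes were Psma5 at 193 and 185 TPM and Psma4 at 188 and 183 TPM, whose ranges overlapped.

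With all transcripts counted, the beta ring genes were expressed over a similar range, of 2.12-fold. The 4 non-catalytic genes of this ring had a median of 293 ± 5.64 TPM. Psmb2 was at 326 and 318 TPM and Psmb3 at 322 and 316 TPM, overlapping each other. Psmb1 followed at 271 and 261 TPM, and Psmb4 was lower at 184 and 177 TPM. The median TPM of the 7 alpha genes was 1.10 ± 0.00203 times that of the 7 standard beta genes (SD, n = 2), and their summed TPM was 1.08 ± 0.0156 times the beta sum. With protein-coding transcripts alone the ratio of medians was 0.927 ± 0.00182 and the ratio of sums 1.02 ± 0.0169, so the medians changed their order and the sums did not. In the order of the 14 core genes by mean, 4 of 13 neighbouring pairs had overlapping library values.

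Genes of the 19S cap were lower and more alike. Their median of 176 and 174 TPM in the libraries put the cap at 0.628 ± 0.0132 of the core median (SD, n = 2). From Psmc6 at 136 TPM to Psmd2 at 208 TPM, the 17 means spanned 1.53-fold, against 2.36-fold in the core. The coefficient of variation among gene means was 13.9% in the cap and 28.7% in the core. Of the cap genes ordered by mean, 10 of 16 neighbouring pairs overlapped. Every cap gene was below the core median in both libraries, although 9 of the 17 had a mean above that of the lowest core gene, Psmb7.

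Within the cap, the base holds a ring of 6 ATPases that unfold substrates. Their median was 187 ± 5.43 TPM. Psmc5, Psmc3, Psmc1 and Psmc4 overlapped, each with the next, from 192 and 190 TPM for Psmc5 to 189 and 180 TPM for Psmc4. Psmc2 was at 164 and 164 TPM, and Psmc6 was the lowest cap gene at 137 and 136 TPM. The base scaffold gene Psmd2, which encodes the docking site of ubiquitin shuttles, was at 213 and 203 TPM. The other large scaffold gene, Psmd1, was at 146 and 145 TPM. Psmd4, which encodes an intrinsic ubiquitin receptor, was at 200 and 187 TPM.

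The 8 lid genes had a median of 170 ± 2.39 TPM, which was 0.908 ± 0.0136 of that of the ATPases. Psmd7 led at 212 and 204 TPM. Its product pairs with that of Psmd14, the deubiquitinase that removes the ubiquitin chain, and Psmd14 was at 168 and 167 TPM. Psmd11 was at 202 and 198 TPM, Psmd3 at 176 and 174 TPM, and Psmd6 at 175 and 169 TPM. Psmd13, Psmd8 and Psmd12 formed the lower end, with means of 150, 145 and 139 TPM.

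The catalytic subunits showed a wide contrast, since genes of the immunoproteasome were expressed at a small part of the standard ones. Their 3 genes summed to 46.6 and 43.7 TPM, against 815 and 785 TPM for the 3 standard genes. The ratio was 0.0564 ± 0.00101, so that 5.34% ± 0.0905 of the TPM of these 6 genes was of the immunoproteasome. The difference was larger than the spread between the libraries, of which replicate 1 over replicate 2 was at most 1.09 (Psmb10) and at least 0.907 (Psmb9) among the 6 genes. Macrophage and granulocyte markers were present and lymphoid markers nearly absent, as given above, and from which cells the immunoproteasome RNA came was not tested.

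The share differed by catalytic site. At the caspase-like site, Psmb9 was at 3.91 and 4.31 TPM, against 381 and 360 TPM for its standard counterpart Psmb6, a ratio of 0.0111 ± 0.0012. At the chymotrypsin-like site, Psmb8 was at 10.4 and 9.9 TPM, against 261 and 249 TPM for Psmb5, a ratio of 0.0398 ± 0.000125. At the trypsin-like site, Psmb10 was at 32.3 and 29.5 TPM, against 174 and 175 TPM for Psmb7, a ratio of 0.177 ± 0.0125. Psmb10 was thus 3.04 ± 0.0878 times as abundant as Psmb8 and 7.55 ± 0.993 times as abundant as Psmb9. Their products are built into the same particle. Psmb9 rested on 119 and 108 reads, and Psmb8 on 333 and 290 reads. The effective length of Psmb9, by which its TPM is scaled, was 965 bases in replicate 1 and 858 bases in replicate 2. This difference enters the ratios of Psmb9. Its protein-coding transcripts alone were at 3.75 and 3.45 TPM, so the libraries were then ordered the other way round.

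**Figure D2:**
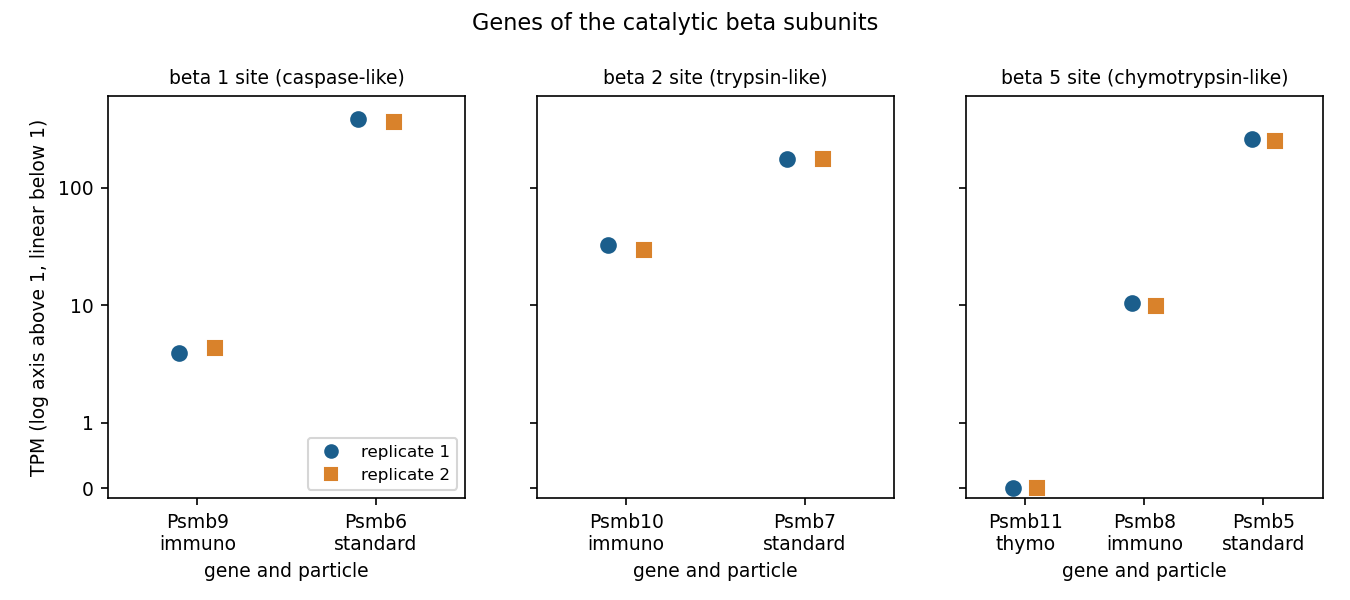
TPM of the genes for the catalytic subunits (vertical axis, logarithmic above 1 and linear below) in replicate 1 (circles) and replicate 2 (squares), by catalytic site. At each site the immunoproteasome gene lies below the standard one, by the most for Psmb9 against Psmb6 and by the least for Psmb10 against Psmb7, and Psmb11 is at 0 and 0.01 TPM.

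Psmb11, the thymoproteasome subunit of cortical thymic epithelium, had 0 reads in replicate 1 and 1 read in replicate 2. A count of 3 reads of this gene would be 0.023 and 0.0248 TPM. On mm10 it lies on chromosome 14 at 54621433 to 54629556, only 3410 bases from Psmb5 at 54614119 to 54618022 on the other strand. Of 4 thymic epithelium markers, Foxn1 was at 0 in both libraries, Aire at 0.06 and 0 TPM and Krt5 at 0.08 and 0.33 TPM, while Ccl25 was at 6.4 and 5.19 TPM. Psmb9 and Psmb8 are neighbours on chromosome 17, at 34181987 to 34187764 and 34197721 to 34201454, with the peptide transporter gene Tap1 between them. Psmb10 lies apart on chromosome 8, at 105935735 to 105938444, Psmb6 on chromosome 11 at 70525367 to 70527858 and Psmb7 on chromosome 2 at 38588036 to 38644087.

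Stretches upstream of 3 catalytic genes are shown, 1 of the immunoproteasome and 2 of the standard core, because their levels carry the contrast above. The windows of Psmb8, Psmb9 and Psmb11 lie within annotated exons and are not shown. For Psmb7, the standard counterpart of Psmb10, no window was found, so it was not searched. Each stretch shown runs 5′ to 3′ on the strand of its gene, from RefSeq on GRCm38.p6. It ends where the first annotated exon begins or at the RefSeq start. Capitals mark matches, on either strand, to TGANNNNGC, the core of the antioxidant response element to which Nfe2l1 and Nfe2l2 bind. The other motifs searched were CCAAT, the element of the factor NF-Y, then GAAANNGAA, a shortened form of the interferon response type element, and the TATA box in the form TATAAA. None of these occurs in the stretches shown. The first is chr8:105938445-105938642 on the minus strand, the second chr11:70525107-70525356 on the plus strand, and the third chr14:54618023-54618245 on the minus strand.
Psmb10: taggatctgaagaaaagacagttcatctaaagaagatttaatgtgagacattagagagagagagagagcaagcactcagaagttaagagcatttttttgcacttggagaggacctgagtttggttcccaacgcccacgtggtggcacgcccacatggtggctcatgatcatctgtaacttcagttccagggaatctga
Psmb6: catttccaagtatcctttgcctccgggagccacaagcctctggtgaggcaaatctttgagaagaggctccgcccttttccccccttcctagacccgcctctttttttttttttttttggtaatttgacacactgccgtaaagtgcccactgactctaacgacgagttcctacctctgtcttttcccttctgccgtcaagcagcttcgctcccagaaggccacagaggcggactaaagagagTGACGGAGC
Psmb5: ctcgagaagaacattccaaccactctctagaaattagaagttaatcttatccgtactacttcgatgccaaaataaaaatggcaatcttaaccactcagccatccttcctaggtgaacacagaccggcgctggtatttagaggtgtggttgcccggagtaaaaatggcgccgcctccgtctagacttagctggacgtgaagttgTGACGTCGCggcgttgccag

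In Psmb6 the match TGACGGAGC starts 9 bases before the RefSeq start, and in Psmb5 the match TGACGTCGC starts 47 bases before it. The Psmb10 stretch holds no match to any of the 4 motifs. RefSeq windows of 300 bases, from 250 before to 50 after the start, were found for 42 of 50 members. TGANNNNGC occurred in 8 of 11 core genes (72.7%), in 6 of 14 cap genes (42.9%) and in 45% of all 27025 genes. It also occurred in 2 of the 3 immunoproteasome genes (66.7%), Psmb8 and Psmb9, whose windows are not shown. CCAAT occurred in 6 of 11 core genes (54.5%), in 4 of 14 cap genes (28.6%) and in 41.1% of all genes. GAAANNGAA occurred in 7 of 42 members (16.7%), Psme1 among them and 0 of the 3 immunoproteasome genes, and in 9.76% of all genes. TATAAA occurred in 4 of 42 members and in 15.7% of all genes. A motif of these few letters is a match of letters only.

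The activators, which open the core without ubiquitin recognition, ranged more widely than any ring. Psme3 encodes PA28 gamma, a nuclear activator, and was highest at 228 and 236 TPM. Psme2 and Psme1 encode the paired subunits of the interferon-inducible cytoplasmic activator. Psme2 was at 191 and 189 TPM and Psme1 at 97.2 and 94.9 TPM. Psme4, which encodes the large activator PA200, was at 14.1 and 14.3 TPM, so Psme3 was 16.4 ± 0.193 times as abundant. The summed TPM of Psme1 and Psme2 was 1.23 ± 0.0413 times that of Psme3 (SD, n = 2). This order turned with protein-coding transcripts only, where the ratio was 0.932. With all transcripts, Psme2 was at the level of the cap genes and Psme1 below the lowest of them. The genes of the immunoproteasome, which interferon also induces, were at 32.3 TPM or below. On protein-coding transcripts alone Psme2 was at 125 and 121 TPM and Psme1 at 86.2 and 85.3 TPM. Both then lay between the lowest cap gene, Psmd13 (82.3 and 75.8 TPM), and the next one, Psmc6 (137 and 136 TPM).

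Psme2b, a nearly identical copy of Psme2 on chromosome 11 at 48945354 to 48946190, was at 1.07 and 1.93 TPM. The main transcript of Psme2 matched it with 99.3% identity over 716 of 795 bases. Its 24.7 and 41.6 expected counts had posterior SDs of 3.37 and 3.97, the same as for Psme2. The values for Psme2b are therefore uncertain, while those counts are 0.757% and 1.41% of the counts of Psme2. Psmf1, which encodes the inhibitor-like regulator PI31, was at 47.4 and 40.8 TPM.

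The Psmg and Psmd assembly chaperones were expressed below the subunits they assemble. The 4 chaperone genes of the 20S core had a median of 69.6 ± 1.85 TPM, which was 0.249 ± 0.000501 of the core median. Psmg2 was at 84.9 and 79.9 TPM and Psmg1 at 71.2 and 70.7 TPM, and their products form the dimer on which the alpha ring starts. Psmg3 was at 70.5 and 65.8 TPM and Psmg4 at 52.7 and 48 TPM, and these encode the other dimer. Pomp, the maturation factor that leaves with the completed core and is degraded in it, was much nearer to the subunits, at 223 and 227 TPM. Chaperones of the 19S base were uneven, with Psmd5 at 118 and 110 TPM, Psmd10 at 36.3 and 38 TPM and Psmd9 at 31.9 and 31.7 TPM.

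Variants known from germ cells were low. Psma8, the alpha subunit that replaces Psma7 in spermatogenic cells, was at 4.78 and 3.85 TPM from 240 and 179 reads, or 0.0108 ± 0.00162 of Psma7. Of 4 germ cell markers, 0 reached 1 TPM, with Dmc1 highest at 0.44 and 0.49 TPM and Stra8 at 0 in both libraries. Psmc3ip carries the letters of the family but encodes Hop2, a factor of meiotic recombination that is not a proteasome subunit, and was at 24.5 and 24.4 TPM.

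Of the members, 5 were quantified in large part from transcripts not annotated as protein-coding. Of the 50 members, 39 had more than 1 transcript in the tables, and in 39 of 39 the most abundant one was the same in both libraries. Protein-coding transcripts held a median of 98% of a member's TPM, but under 80% in Psma3, Psmb4, Psmd13, Psme2 and Psmc3ip. In Psma3 they held 46.0% and 49.5%, and 1 retained-intron transcript, Psma3-203, held 31.9% and 29.8%. In Psmb4 they held 51.8% and 53.4%, with the retained-intron transcript Psmb4-202 at 44.0% and 42.8%. Psmd13 had 55.6% and 49.6% in protein-coding transcripts and 27.1% and 28.8% in 1 transcript annotated for nonsense-mediated decay. Psmd13 transcripts that are not in GENCODE M21, and so of unknown type, were left outside the protein-coding share. The larger of them held 8.88% and 10.3%. Psmc3ip had 45.4% and 48.1% in its protein-coding transcript.

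In Psme2 the protein-coding share was 65.4% and 63.9%. A retained-intron transcript of 185 bases, Psme2-203, was listed with an effective length of 86 bases, the length by which TPM is scaled. Its 152 and 146 reads gave 29.4% and 30.7% of the gene's TPM. Counting only protein-coding transcripts, Psme2 was 1.43 ± 0.0223 times Psme1, against 1.98 ± 0.0195 times with all transcripts.

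On protein-coding transcripts alone the core genes were ordered differently. Psma3 moved to 187 and 206 TPM and rank 10 of 14, and Psma7 was first at 387 and 382 TPM. Psmb4 moved to 95.3 and 94.4 TPM, the lowest of the core. Psmd13 moved to 82.3 and 75.8 TPM, the lowest of the cap. The spread widened to 4.05-fold in the core and 2.63-fold in the cap, with coefficients of variation of 31.5% and 19.1%. Within the core it was 3.60-fold in the beta ring and 2.12-fold in the alpha ring, so the rings were then less alike. The core median was then 261 TPM and the cap median 170 TPM, so the cap stayed below the core.

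**Figure D3:**
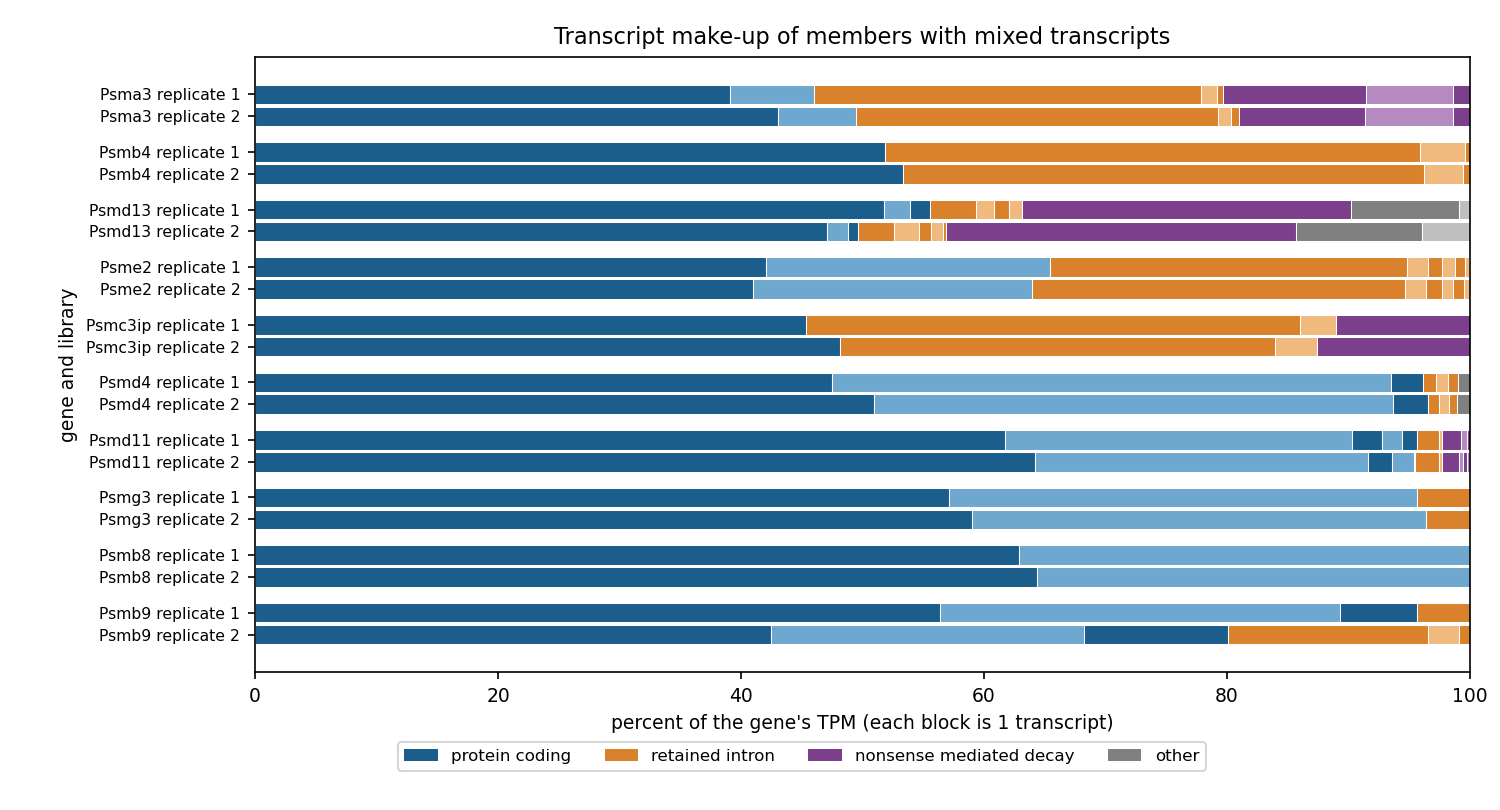
Share of each gene's TPM (horizontal axis, percent) by transcript, for 10 members with mixed transcripts, with replicate 1 above replicate 2. Blocks are coloured by annotated type, and the orange and purple blocks of Psma3, Psmb4 and Psmd13 have nearly the same width in both libraries.

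Among protein-coding splice forms, Psmd4 divided nearly evenly. Psmd4-202 held 47.5% and 50.9% of the gene's TPM and Psmd4-201 held 46.0% and 42.7%. Psmb8-203 held 62.8% and 64.3% of the TPM of Psmb8, and Psmb8-201 the remainder. The main transcript of Psmd11 held 61.7% and 64.2%.

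The level of Psma3 was further tied to a processed pseudogene. Psma3 lies on chromosome 12 at 70974621 to 70996347, and Gm13835 on chromosome 6 at 31141979 to 31142663. The main transcript of Psma3 matched Gm13835 with 100% identity over 685 of 859 bases. Gm13835 was listed at 94.4 and 71.0 TPM from 1741 and 1212 expected counts, against 12017 and 11226 for Psma3. Both genes had posterior SDs of 190 counts in replicate 1 and 134 counts in replicate 2. Psma3 and Gm13835 together came to 501 and 487 TPM, with the pools then ordered the other way round than for Psma3 alone. How many of these reads come from each locus was not tested.

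Other pseudogenes held few reads. The search found 28 pseudogenes with at least 90% identity over 300 bases to a member, of which 19 were in the tables and 3 reached 1 TPM in both libraries. All pseudogenes together summed to 99.99 and 78.8 TPM, of which Gm13835 made up most. Exons of 12 members overlap exons of a gene on the opposite strand, among them Psmb9 with Tap1, Psmb7 with Nek6, Psmd13 with Sirt3 and Psmc3ip with Mlx. No strand setting is known for the counting, and without strand such reads cannot be told apart. Nek6 was at 38.4 and 36.1 TPM, Mlx at 30.1 and 29.4 TPM, Sirt3 at 10.9 and 12.6 TPM and Tap1 at 2.05 and 2.29 TPM.

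The members differed little between the pools. With 50 or more expected counts on average, 48 members were compared as the log2 ratio of TPM plus 0.1 in replicate 1 over replicate 2. Past 1.2-fold was 1 of 48, Psma8, which was higher in replicate 1 with a log2 ratio of 0.31. With a pseudocount of 1 TPM it was not past that size, and 0 members were. Of all 13017 genes compared in this way, 12.3% were past 1.2-fold, with 5.49% higher and 6.85% lower in replicate 1. These genes were not matched to the members by number of reads, and genes with few reads pass such a size more easily. Most members had far more reads than the minimum of 50, and Psma8, with 240 and 179 reads, was among those with the fewest. The shares therefore do not show that the members were steadier than other genes of their level. None of the 31 core and cap genes was past 1.2-fold, and their log2 ratios ran from -0.04 in Psmd13 to 0.09 in Psmd4. The effective length of Psmd13 was 1344 bases in replicate 1 and 1272 bases in replicate 2, a difference that enters its ratio. With 1 library for each pool there is no replicate check of these differences.

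The small differences leaned to replicate 1. Higher in replicate 1 were 39 of 48 members, against 52.1% of all genes compared. The median log2 ratio of the members was 0.04, against 0.01 for all genes. Scaling to the spike-ins moved these medians to 0.15 and 0.12, and 47 of 48 members were then above 0, against 80.3% of all genes. Among core and cap genes, 26 were higher and 5 lower in replicate 1. The exact 95% counting interval of the ratio was wholly above 1 for 18 of these 48 members, against 16.3% of all genes compared, and wholly below 1 for 1 member, Psme3, against 14.6% of all genes. It held 1 for the other 29 members. Psme2b, under the count minimum, also had an interval below 1. The intervals narrow with the number of reads and cover counting error only, since PCR copies are not independent molecules. Psmf1 was 1.16-fold higher in replicate 1, with an interval of 1.10 to 1.23, and Psma8 was 1.24-fold higher, with an interval of 1.02 to 1.52. The interval does not cover how reads were assigned to transcripts. For Psmf1 the effective length was 1747 bases in replicate 1 and 1857 bases in replicate 2. Its protein-coding transcripts alone were closer between the libraries, at 42.5 and 39.6 TPM. Some blood cell markers also differed between the pools. The sum of the megakaryocyte markers was 782 TPM in replicate 1, against 682 TPM in replicate 2. Among them Pf4 was at 664 and 571 TPM, Itga2b at 77.6 and 72.1 TPM and Gp1bb at 39.7 and 38.7 TPM. Granulocyte markers were lower in replicate 1 by the sums given above. Macrophage sums were nearly equal, with Adgre1, C1qa and Cd68 higher in replicate 1 and Csf1r and Lyz2 lower. Of the erythroid markers, Gata1 and Klf1 were higher in replicate 1 and Slc4a1 and Hba-a2 lower. The part of these markers in the ratios of the members was not tested.

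**Figure D4:**
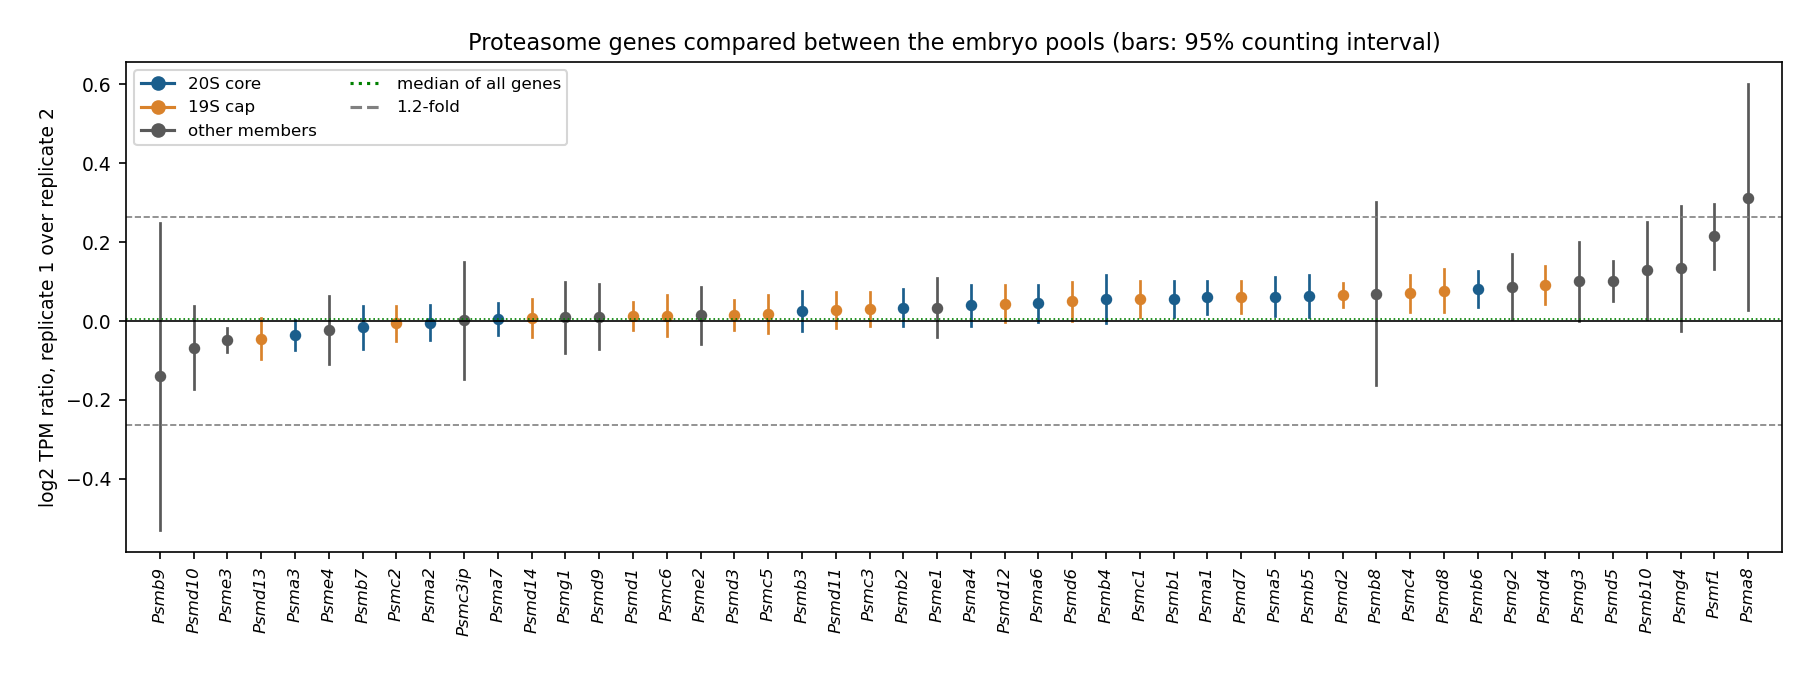
The log2 ratio of TPM in replicate 1 over replicate 2 (vertical axis) for the 48 members with at least 50 expected counts on average, in increasing order, with exact 95% counting intervals. Most points lie between 0 and 0.1, and Psma8 alone lies past the dashed line of 1.2-fold.

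Genes that work with the proteasome were set beside the members. Of 12 listed proteasome parts and partners whose symbols fall outside the rule, 11 were found and 11 were detected, with a median of 106 TPM. Adrm1 (165 and 153 TPM), a ubiquitin receptor of the cap, and Sem1 (132 and 123 TPM), a small lid subunit, were close to the cap genes. Uchl5, a deubiquitinase bound through Adrm1, was at 111 and 102 TPM. Usp14, a deubiquitinase of the cap, was at 142 and 140 TPM. Ecpas, which tethers proteasomes, was at 26.5 and 30.9 TPM.

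Nfe2l1, which encodes the factor that raises proteasome transcription when the proteasome is impaired, was at 23.6 and 28.3 TPM. Ddi2, whose protease activates that factor, was at 24.7 and 24.0 TPM, and the deglycosylase gene Ngly1 was at 17.1 and 16.8 TPM. The related factor gene Nfe2l2 was at 46.2 and 45 TPM. Upstream of the proteasome, ubiquitin was encoded at high levels, with Ubb at 1329 and 1275 TPM and Rps27a at 912 and 870 TPM. The main ubiquitin-activating enzyme gene Uba1 was at 149 and 151 TPM, and the alternative one, Uba6, at 6.76 and 6.93 TPM. Vcp, the segregase that extracts ubiquitinated proteins, was at 318 and 307 TPM.

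Of the 6 genes of interferon response and peptide supply, 5 were detected in both libraries. Tap1 was at 2.05 and 2.29 TPM and Tap2 at 5.95 and 4.9 TPM, so that Tap1 lay below Psmb9, and Tap2 between Psmb9 and Psmb8. The interferon-responsive factor gene Irf1 was at 6.32 and 6.47 TPM. Nlrc5, the activator of MHC class I genes, was at 0.1 and 0.04 TPM. B2m, the light chain of MHC class I, was at 244 and 237 TPM, which was above every other gene of this list.

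**Figure D5:**
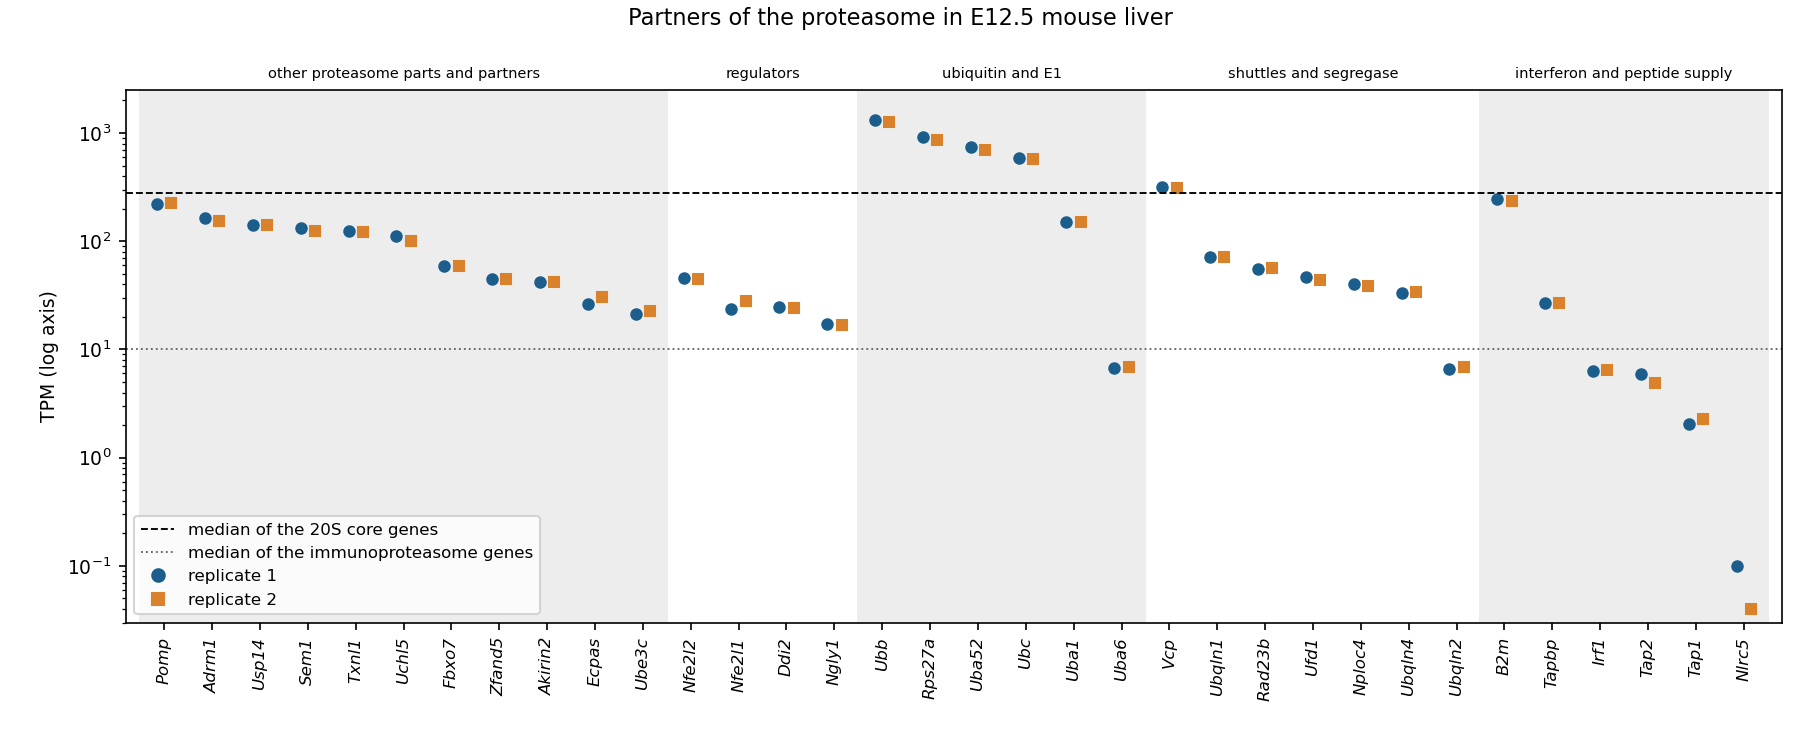
TPM (vertical axis, logarithmic) of the listed partners of the proteasome in replicate 1 (circles, left) and replicate 2 (squares, right). The dashed line is the 20S core median of 279 TPM and the dotted line the immunoproteasome median of 10.1 TPM, which lies above Irf1 at 6.32 and 6.47 TPM and below Tapbp at 26.6 and 26.8 TPM.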

How the data were processed

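Total RNA from pooled livers was extracted with the Ambion mirVana kit, with 10 ng of input and spike-ins, per the labels. The authors deposited gene and transcript tables on mm10 with an expected count, TPM, the posterior SD of the count (another unit, in counts) and, for transcripts, the percent of the gene's TPM (IsoPct). For the aligner, the quantifier and the strand setting, nothing is stated: not given in the sources used here. Effective lengths were taken from the deposited files.

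Symbols, positions and transcript types came from GENCODE M21, matched by identifier to the deposited GENCODE M4 identifiers on the same assembly. Of the deposited transcripts of members, 5 of 224 were not in M21. The members and lists were chosen with earlier results of these data known, and every member is named or counted by class. Libraries were taken as separate pools, per the labels, and their spread may be partly technical. Levels were summarised as mean ± SD over 2 libraries, and ratios were formed within each library. With 1 group no test was made. Pools were compared as log2(TPM + 0.1), a scale that understates the ratio of low genes, with a size of 1.2-fold among genes averaging at least 50 expected counts. Counting intervals are exact (Clopper-Pearson, 95%), on rounded expected counts and rescaled to TPM. They were tried on simulated independent counts only, without differences in effective length, errors of read assignment or PCR copies. Alternatives used the scaling factors of edgeR 4.0.16 (TMM) and DESeq2 1.42.0 in R 4.3.3, the spike-ins, other pseudocounts, filters, lengths and transcript sets. Near copies were sought with blastn 2.17.0. Other work used Python 3.11.15, pandas 2.3.3 and scipy 1.17.1. Proteins, Paaf1 and some listed partner genes and motifs are not reported here.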

Additional observations from a re-analysis of the deposited data

Results flagged for a closer look

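Outside the rule for members, reads were listed at 10 pseudogenes of proteasome genes above the limit of 3 reads, with no control samples to set them against. Gm13835, identical to most of the main Psma3 transcript, had 1741 expected counts in replicate 1 and 1212 expected counts in replicate 2. Psmb7-ps2, whose symbol matches the letters of the family but which is a pseudogene, had 4.41 expected counts in replicate 1 and 0 in replicate 2. Copies of Psma5 followed, Gm8394 with 29.2 and 36.29 expected counts in replicates 1 and 2 and Gm12989 with 12 and 21.97. Gm14048, a copy of Psmd11, had 36.63 and 72.27, and Gm5422, a copy of Psmd2, had 32.44 and 35.16. Gm6542, a copy of Psma4, had 21.7 and 18.79, and Gm9575, a copy of Psmc1, had 19.24 and 16.87. Copies of Psmb3 were lower, Gm4950 with 11.09 and 11.34 and Gm14227 with 1 and 4. How many of these reads belong to the parent genes was not tested.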

How the results depend on the processing

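Levels moved with the scale: without spike-ins the core median was 295 TPM and the cap median 185 TPM, and without spike-ins and globin genes they were 406 and 255 TPM. With protein-coding transcripts only, the core median was 261 TPM, the cap median 170 TPM, the cap-to-core ratio 0.651, the immunoproteasome-to-standard ratio 0.0586, the assembly-chaperone-to-core ratio 0.261, the alpha-to-beta ratio of medians 0.927 and the ratio of PA28 alpha and beta to gamma 0.932, and these last 2 crossed 1 (the alpha-to-beta ratio of sums did not). With full gene lengths the same ratios were 0.657 for cap to core, 0.0584 for the immunoproteasome, 0.245 for the assembly chaperones, 1.11 for alpha to beta and 1.11 for PA28. Leaving out a library gave core medians of 273 to 285 TPM, cap medians of 174 to 176 TPM, cap-to-core ratios of 0.618 to 0.637, immunoproteasome ratios of 0.0557 to 0.0571, PA28 ratios of 1.2 to 1.26, assembly ratios of 0.249 to 0.250, alpha-to-beta ratios of 1.10 to 1.10 and 49 to 49 members detected. At a detection level of 0.5 TPM 49 members passed, and at 5 TPM 46 did. Between pools, TMM and DESeq2 size factors gave medians of 0.03 and 0.04 with 1 member past 1.2-fold each. Scaling to the spike-ins shifted the median of all genes to 0.12 and that of the members to 0.15, with 2 members past 1.2-fold (Psma8 and Psmf1). A pseudocount of 1 TPM left 0, and a count minimum of 10 or none gave 2 (Psma8, and Psme2b lower in replicate 1). The members stayed about 0.03 above all genes under each of these scalings. Adding Gm13835 to Psma3, chosen after seeing the data, gave a members' median of 0.04; the core and alpha medians cannot move by it, since Psma3 is already the highest. No paired analysis was possible because there is 1 group and no test.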
